A study of Mus musculus with 8 samples.

Results

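The data describe 32 genes that mark astrocytes, radial glia and neural progenitors, in poly-A RNA of cultured mouse neurons that lack or carry Nuak1. The genes were chosen by symbol and read as the rows of the deposited count table whose Ensembl identifiers map to those symbols, 32 of 32726 identifiers, each symbol matching 1 identifier. They were taken as 15 astrocyte genes, 14 radial glia and stem cell genes, and 3 genes of intermediate progenitors and proneural commitment. The 4 knockout (KO) libraries came from a constitutive Nuak1 knockout and the 4 wild-type (WT) libraries from Nuak1 +/+ animals, per the study on a C57Bl/6JRj background. All 8 were untreated primary cultures of embryonic neurons, kept without serum and collected after 5 days. The labels give the tissue only as cortex or hippocampus, a sequencing lane, and a strain label whose meaning they do not explain: BJ for KO1, KO2 and KO3, BK for KO4, WT2 and WT4, BO for WT1 and BQ for WT3. The deletion was present in every cell type of the culture, so differences between KO and WT are not restricted to neurons. The comparison of genotypes asks whether non-neuronal and progenitor transcripts in these cultures differed when Nuak1 was missing.

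Radial glia are the neural stem cells of the embryonic cortex. They divide at the ventricle, produce neurons either directly or through intermediate progenitors marked by Eomes, and later give rise to astrocytes. Notch receptors act through the DNA-binding protein RBPJ to switch on Hes1 and Hes5, repressors of the proneural factor Neurog2, and so hold cells in a progenitor state. Bone morphogenetic proteins (BMPs) act through SMAD proteins to switch on Id genes, whose products sequester the partners of proneural factors. Astrocytes take up glutamate through Slc1a2 and Slc1a3, convert it to glutamine through Glul, and wrap vessels with endfeet rich in the water channel Aqp4.

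Promoter sequences were planned for the Notch or BMP targets Hes1, Hes5, Id1 and Id3 where a window held a match. Hes5 alone met this, so its matches were a condition of its choice. Id4, the member with the smallest p between genotypes, was added after its value was seen. No window was matched for Hes1, Id1, Sox9, Aqp4, Clu or Sparcl1. Capitals mark matches on either strand to TGGGAA, the core of the RBPJ site, and to GGCGCC, the letters of a BMP-responsive element. Each line gives the 250 bases before the transcript start used by RefSeq, plus strand, GRCm38.p6.
Hes5, chr4:154960673-154960922: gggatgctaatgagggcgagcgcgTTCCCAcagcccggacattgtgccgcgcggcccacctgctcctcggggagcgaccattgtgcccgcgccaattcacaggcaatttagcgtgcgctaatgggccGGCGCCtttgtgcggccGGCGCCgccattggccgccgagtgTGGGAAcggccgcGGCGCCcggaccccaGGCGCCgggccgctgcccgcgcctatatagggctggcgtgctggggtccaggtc
Id4, chr13:48260866-48261115: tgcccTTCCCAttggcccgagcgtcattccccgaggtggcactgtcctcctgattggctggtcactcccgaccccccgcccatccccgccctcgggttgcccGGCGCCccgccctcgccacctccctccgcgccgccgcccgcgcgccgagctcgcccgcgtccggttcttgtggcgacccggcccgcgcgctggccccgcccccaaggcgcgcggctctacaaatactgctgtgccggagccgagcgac

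The Hes5 window held 2 matches to TGGGAA and 4 to GGCGCC, and no base lay in more than 1 match. The Id4 window held 1 match to each. The annotated span of Hes5 (chr4:154960626-154962372) begins before the window shown, and that of Id4 (chr13:48261116-48266028) begins right after it. RefSeq windows were matched for 26 of the 32 members, and 9 of these held TGGGAA in at least 1 window, beside 21.6% of all 32851 windows of this length. GGCGCC occurred in 4 members (Hes5, Id4, Slc4a4 and Neurog1), beside 9.59% of all windows. The full palindrome of the nuclear factor I (NFI) family occurred in 0 of the 26 members and in 0.0365% of all windows. The member counts are per gene, over 33 windows, and the shares are per window, so their units differ. A member with several windows had more chances to match. Id3 held a match to none of the 3 motifs. These matches are descriptions of the letters, not of binding.

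Total counts ranged from 31247078 to 67155004 per library, and all levels below are CPM, counts scaled to these totals. Nuak1 lay between 1.96 and 2.72 CPM in KO and between 51.6 and 82.6 CPM in WT, so each library carried the genotype of its label. The labelled cell type was checked on 7 pan-neuronal markers, which summed to between 5134 and 6451 CPM, and the 32 members together summed to between 4480 and 6560 CPM. KO1 and WT1 stood apart: Tubb3, a neuronal tubulin, was at 299 and 252 CPM there and between 726 and 1342 CPM in the other 6, and the surrogate variable of the fit separated these libraries from the rest. WT3 had the lowest level of 10 of the 30 members tested and the highest of 8, beside 19.6% and 21.5% of all tested genes.

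No member differed between genotypes by the adjusted test. In edgeR's quasi-likelihood test with 1 surrogate variable and Benjamini-Hochberg adjustment over 16272 genes, 0 of the 30 members tested passed an adjusted p of 0.05, beside 0.0492% (8) of all tested genes. DESeq2 with the same surrogate variable also called 0 members. At an unadjusted p under 0.05 there were 2 members in edgeR, Id4 higher and Dio2 lower in KO, beside 10.5% of all tested genes (4.71% higher and 5.78% lower in KO), which puts the members' share below the background. No member had CPM values that did not overlap between genotypes, a pattern held by 2.4% of all tested genes. The other 2 members, Gjb6 and Neurog1, did not pass the filter on low counts.

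**Figure D1:**
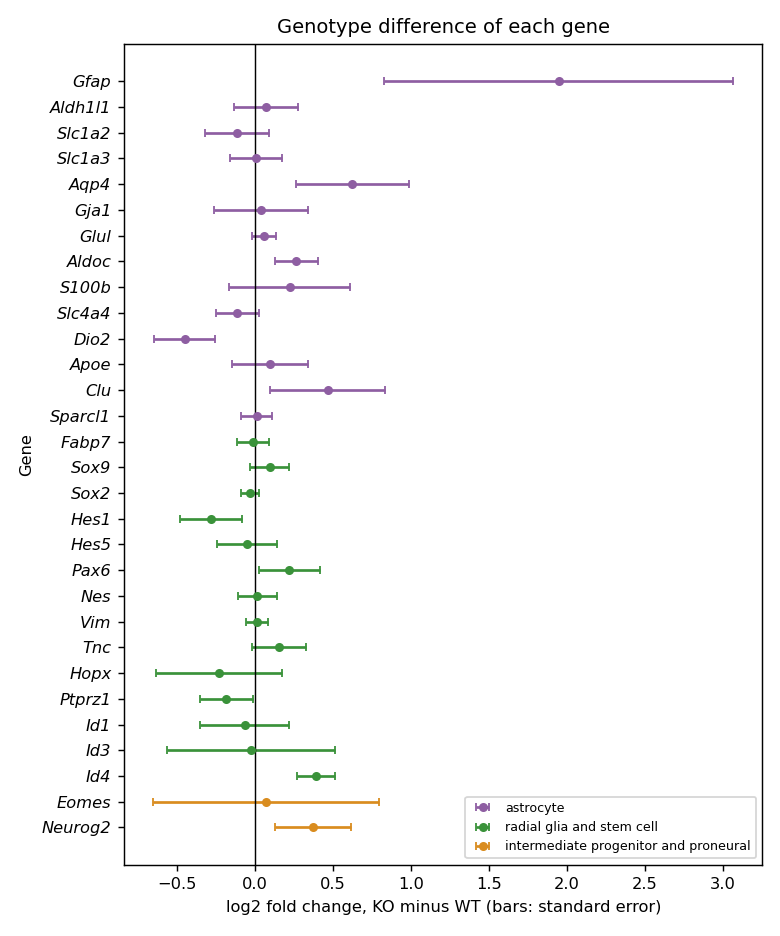
Log2 fold change of each of the 30 tested genes, KO minus WT, with its standard error from the edgeR fit, coloured by group. Gfap has the largest value, 1.95, with the widest bar, 1.12, and most radial glia and stem cell genes sit near 0.

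The direction of the members was mixed. Of the 14 astrocyte members tested, 11 had a log2 fold change above 0 and the median was 0.07. Of the 14 radial glia and stem cell members, 6 were above 0 and the median was -0.02. Over all tested genes 53.4% were above 0 and the median was 0.01. These counts describe the fitted values and are no test of the groups. The astrocyte median changed side with the libraries used: it was 0.22 on lane B alone, -0.16 on lane A alone, 0.22 without KO4, -0.02 without KO2 or KO3, and -0.53 in the fit on strain labels. The single-lane fits and that last fit held no surrogate variable. In the fit on strain labels, KO4 was the only KO library compared with WT libraries of the same label. Without KO4, 4 of the 14 astrocyte members were higher in KO at an unadjusted p under 0.05 (4.54% of all genes) and 1 lower (5.31%).

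Compared per kilobase of exon, which allows levels of different genes to be set side by side, Fabp7, the fatty acid binding protein of radial glia, had the highest mean level of the members at 560 CPM per kb. Only 0.0899% of the tested genes with a known length were higher. It was followed by Sparcl1, a matricellular protein of astrocytes, at 279 CPM per kb, Ptprz1, a receptor phosphatase of radial glia, at 191 CPM per kb, and Apoe, a lipid carrier, at 118 CPM per kb. The median over all tested genes was 6.41 CPM per kb. Of the 30 tested members, 20 were above that median.

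At the other end, S100b and Eomes were the lowest of the tested members, at 0.871 and 0.753 CPM per kb, and Pax6, Id1 and Hes1 lay between 0.964 and 1.01 CPM per kb. Gjb6, the connexin of mature astrocytes, had between 0 and 5 counts per library, at most 0.105 CPM. Neurog1, a proneural factor, had 1 count in KO4 and 0 in the other 7 libraries, where a count of 0 allows up to 3 counts. At this depth no genotype difference was detectable for either gene. Such floors cover counting error only.

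**Figure D2:**
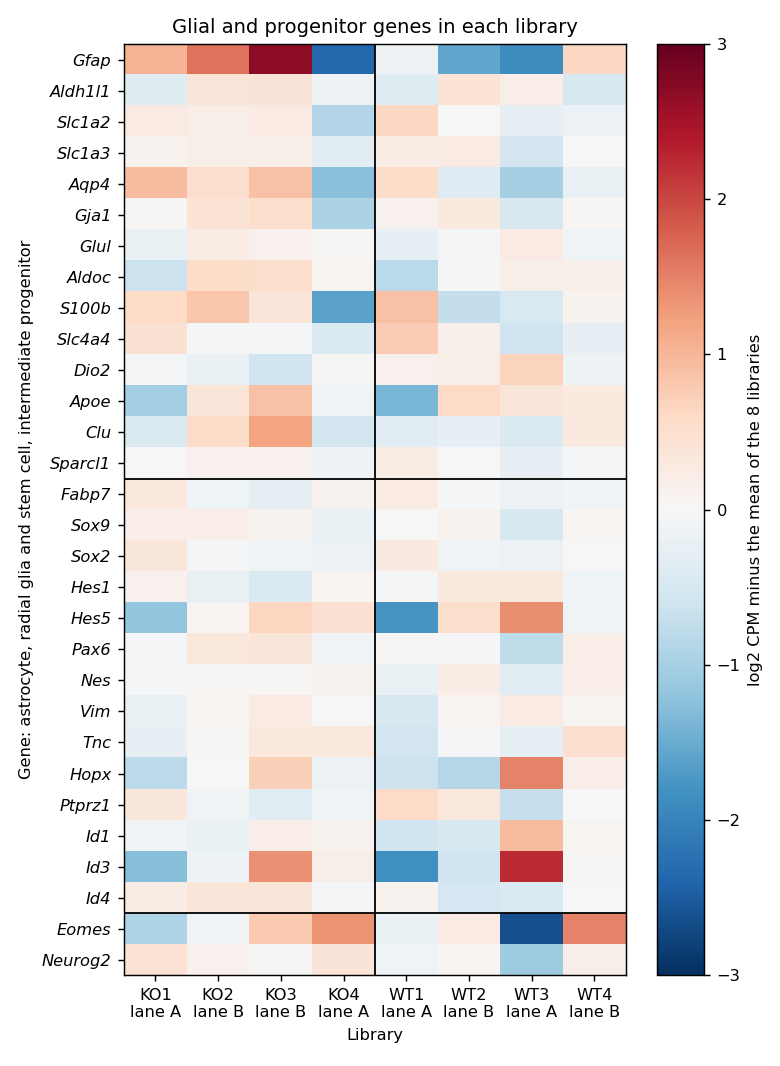
Log2 CPM of each of the 30 tested genes minus its mean over the 8 libraries (colour), with genes as rows in 3 groups and libraries as columns, KO to the left of the black line. The strongest colours are those of Gfap in KO3, KO4 and WT3, of Id3 and Eomes in WT3 and of Id3 and Hes5 in WT1.

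Among the astrocyte genes, Gfap, the intermediate filament of astrocytes (chr11:102887336-102897200, GRCm38.p6), varied most. It was at 73.8, 112, 235 and 7.12 CPM in KO1 to KO4 and at 32.9, 12.5, 9.90 and 56.7 CPM in WT1 to WT4. KO3 was the highest and KO4 the lowest library of all 8, a 33.1-fold range that 0.0563% of the tested genes reached. The other 3 KO libraries exceeded every WT library, while KO4 lay below all of them. The log2 fold change was 1.95 with a standard error of 1.12 (edgeR adjusted p 0.587). It was 1.01 without KO3 and -2.26 in the fit on strain labels.

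Aqp4, the endfoot water channel, was at 140, 106, 137 and 30.8 CPM in KO1 to KO4 and at 108, 56.8, 37.3 and 63.3 CPM in WT1 to WT4. As with Gfap, KO4 was the lowest of all libraries and WT3 the next lowest. KO minus WT, the log2 fold change was 0.63 with a standard error of 0.36 (edgeR adjusted p 0.573), 0.22 without KO3 and -0.97 in the fit on strain labels. On lane B alone, with 2 libraries of each genotype, Aqp4 was called at 0.95 (edgeR adjusted p 0.00582), beside 0.588% of all genes tested there. Aldoc, the brain aldolase enriched in astrocytes, was the other member called on lane B, at 0.42 (edgeR adjusted p 0.0413). On that lane both KO libraries carried label BJ and both WT libraries BK, so genotype and strain label cannot be told apart there. On lane A the values were 0.19 for Aqp4 and -0.02 for Aldoc, and the difference between lanes did not pass for either.

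Clu, a secreted chaperone, was at 50.4, 100, 156 and 46.4 CPM in KO1 to KO4 and at 53.6, 57.5, 50.4 and 84.0 CPM in WT1 to WT4. KO3 and KO2 were the highest libraries and KO4 the lowest. Its log2 fold change was 0.47 with a standard error of 0.37 (edgeR adjusted p 0.679), and it was 0.08 without KO3. S100b, a calcium-binding protein of astrocytes, lay between 15 and 76 counts per library, at 0.371 CPM in KO4 and up to 2.08 CPM in WT1. Gja1, the main astrocyte connexin, was also lowest in KO4, at 46.7 CPM, and highest in KO3, at 130 CPM.

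KO3 and KO2, the highest libraries in Gfap and Clu, also had the highest sums of microglia markers, and KO4 had the lowest, although astrocytes and microglia are separate lineages. The 15 microglia markers summed to 33.7, 71.3, 95.8 and 18.5 CPM in KO1 to KO4 and to 28.9, 29.7, 23.8 and 51.9 CPM in WT1 to WT4. The KO range of 18.5 to 95.8 CPM enclosed the WT range of 23.8 to 51.9 CPM. Tmem119, a defining microglia marker, was at 0 in 5 of 8 libraries and at most 0.0578 CPM. Of the 12 microglia markers tested, 0 passed the adjusted threshold and 0 had an unadjusted p under 0.05, with a median log2 fold change of 1.30. Without KO4 9 of the 12 were higher in KO at an unadjusted p under 0.05 (4.54% of all genes), as were 8 with lane as a term (7.51%), 7 without WT4 (6.92%) and 7 of 13 on lane B alone (5.6%), while 0 passed the adjusted threshold in each of these fits. The median was 0.74 without KO3, 2.03 without WT4 and -2.08 in the fit on strain labels. The part of microglia in the astrocyte values was not tested. In these bulk samples fewer cells of a type and less RNA per cell cannot be told apart.

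**Figure D3:**
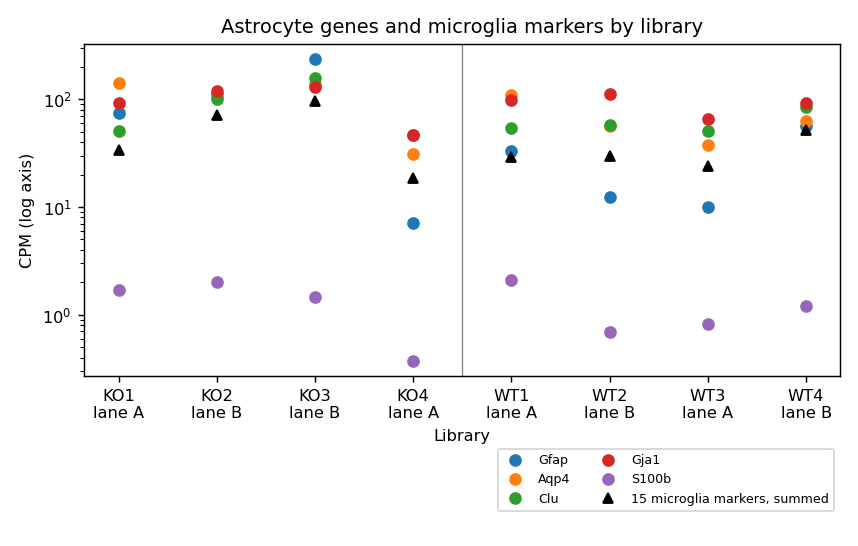
CPM (log axis) of Gfap, Aqp4, Clu, Gja1 and S100b (circles) and the summed CPM of 15 microglia markers (triangles) in each library. KO4 is the lowest library for all 5 genes and for the sum, and KO3 is the highest for Gfap, Clu, Gja1 and the sum.

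Of the glutamate transporters, Slc1a3 varied over a 1.74-fold range and Slc1a2 over a 2.80-fold range, which 50.2% and 18.6% of tested genes reached. Slc1a3 (GLAST) was at 637, 663, 659 and 471 CPM in KO1 to KO4 and at 682, 692, 397 and 580 CPM in WT1 to WT4. Slc1a2 (GLT-1), which matures later than Slc1a3, was at 398, 376, 395 and 183 CPM in KO1 to KO4 and at 511, 339, 281 and 295 CPM in WT1 to WT4. KO4 stood below the other 3 KO libraries for both genes, and WT3 was the lowest WT library. The log2 fold changes were 0.0066 (standard error 0.17) for Slc1a3 and -0.11 (standard error 0.20) for Slc1a2, with edgeR adjusted p values of 0.993 and 0.875. The sign for Slc1a3 turned in 11 of 18 alternatives, and Slc1a2 was at -0.81 in the fit on strain labels, -0.48 in the lane A libraries and 0.21 in those of lane B.

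Aldh1l1, a folate enzyme found in most astrocytes, was at 24.8, 40.8, 41.6 and 28.7 CPM in KO1 to KO4 and at 24.9, 42.1, 36.3 and 23.0 CPM in WT1 to WT4. It did not follow Gfap: KO4 was above KO1, and WT2 was the highest library. KO minus WT, the log2 fold change was 0.07 with a standard error of 0.20 (edgeR adjusted p 0.923). An annotated gene on the opposite strand covers 11.1% of its exonic bases.

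Apoe was at 103, 270, 386 and 190 CPM in KO1 to KO4 and at 80.0, 318, 270 and 254 CPM in WT1 to WT4. KO1 and WT1, the libraries with low Tubb3, were the lowest in each genotype, and the log2 fold change was 0.09 with a standard error of 0.24 (edgeR adjusted p 0.918). Microglia also express Apoe, so its level is not a measure of astrocytes alone. Aldoc was likewise lowest in KO1 (85.4 CPM) and WT1 (76.3 CPM) and reached 195 CPM in KO2, with a log2 fold change of 0.27 and a standard error of 0.14 (edgeR adjusted p 0.538), or 0.14 without KO2. Hes5 and Id3 shared this low of KO1 and WT1, and the part of that library difference in these values was not tested.

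Dio2, the deiodinase by which astrocytes supply active thyroid hormone (chr12:90724552-90739038), was the only astrocyte member with an unadjusted p under 0.05. It was at 20.6, 18.7, 14.3 and 22.0 CPM in KO1 to KO4 and at 23.3, 24.2, 34.0 and 19.4 CPM in WT1 to WT4. All 4 KO libraries were below the WT mean of 25.2 CPM, but WT4 was lower than KO1 and KO4. The log2 fold change was -0.45 with a standard error of 0.19 (edgeR p 0.0478, adjusted p 0.475). The difference was -0.28 without WT3 and -0.0085 in the fit on strain labels.

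The remaining astrocyte members overlapped between genotypes. Sparcl1, the most abundant by CPM, ranged from 726 CPM in WT3 to 1003 CPM in WT1, a 1.38-fold range that 81.1% of tested genes reached. Glul ranged from 211 to 293 CPM, a 1.39-fold range. Slc4a4, a bicarbonate cotransporter, ranged from 58.0 CPM in WT3 to 151 CPM in WT1. Gja1 and Slc4a4 had overlapping genotypes, with KO means of 97.3 ± 37.3 and 89.3 ± 22.6 CPM, against WT means of 91.7 ± 19.3 and 95.3 ± 40.3 CPM (SD, n = 4 each).

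Among the radial glia genes, the transcription factor Sox2, which maintains neural stem cells, was at 54.0, 41.3, 39.7 and 37.5 CPM in KO1 to KO4 and at 51.0, 38.6, 37.4 and 42.9 CPM in WT1 to WT4. Fabp7 was at 863, 637, 580 and 752 CPM in KO1 to KO4 and at 824, 681, 612 and 651 CPM in WT1 to WT4. Vim, a filament protein of radial glia and astrocytes, was at 69.4, 84.8, 96.5 and 81.7 CPM in KO1 to KO4 and at 58.4, 86.2, 96.9 and 86.1 CPM in WT1 to WT4. The genotypes overlapped in all 3 genes, and the highest and lowest libraries differed by 1.45-fold, 1.49-fold and 1.66-fold. KO minus WT, the log2 fold changes were -0.03 for Sox2 (standard error 0.06), -0.01 for Fabp7 (standard error 0.10) and 0.01 for Vim (standard error 0.07), with edgeR adjusted p values from 0.876 to 0.978.

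Pax6, a transcription factor of cortical radial glia, was at 18.3, 23.4, 24.0 and 17.8 CPM in KO1 to KO4 and at 19.1, 18.2, 11.1 and 21.7 CPM in WT1 to WT4. WT3 was the lowest library, and all 4 KO libraries were above the WT mean of 17.5 CPM. The log2 fold change was 0.22 with a standard error of 0.20 (edgeR adjusted p 0.720), and it was 0.03 without WT3 and 0.36 without KO1. Exons of Elp4 on the opposite strand overlap 27.9% of the exonic bases of Pax6, and whether the counting used strand is not given in the sources used here.

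The other structural and matrix genes of radial glia also overlapped between genotypes. Nes, the neural stem cell filament, averaged 87.3 ± 3.28 CPM over KO and 84.3 ± 16.2 CPM over WT libraries (SD, n = 4 each). Sox9, a gliogenic transcription factor, was at 47.8 ± 5.96 CPM in KO and 43.3 ± 7.59 CPM in WT. Tnc, an extracellular matrix glycoprotein, was at 289 ± 52.3 CPM in KO and 256 ± 83.8 CPM in WT. Ptprz1 was at 1459 ± 294 CPM in KO and 1616 ± 546 CPM in WT, with 2199 CPM in WT1 and 921 CPM in WT3 as its extremes. WT3 was the lowest library for Nes, Sox9 and Ptprz1 but not for Tnc, which was lowest in WT1.

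Id4, an inhibitor of DNA binding expressed in neural stem cells (promoter above), was the member with the smallest p. It was at 44.3, 48.6, 48.5 and 36.1 CPM in KO1 to KO4 and at 40.5, 26.2, 28.1 and 37.8 CPM in WT1 to WT4. All 4 KO libraries were above the WT mean of 33.1 CPM, but KO4 was below WT1 and WT4, so the genotypes overlapped. KO minus WT, the log2 fold change was 0.39 with a standard error of 0.12 (edgeR p 0.00977, adjusted p 0.365). The unadjusted p was under 0.05 in 16 of 18 alternatives, while the adjusted p ranged from 0.109 to 1.0 and passed in none of them. The fold change was 0.17 in the fit on strain labels, 0.20 in the lane A libraries and 0.55 in those of lane B. By p, Id4 ranked 429 of 16272 genes. A330033J07Rik, on the opposite strand, covers 10.3% of its exonic bases.

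The other Id genes did not follow Id4. Id3 was at 0.948, 2.05, 5.93 and 2.57 CPM in KO1 to KO4 and at 0.640, 1.52, 10.9 and 2.34 CPM in WT1 to WT4. Id1 ranged from 0.704 CPM in WT1 to 2.06 CPM in WT3, 22 to 98 counts. Both were highest in WT3 and lowest in WT1, where Id4 was at 28.1 and 40.5 CPM. The 16.9-fold range of Id3 was reached by 0.275% of tested genes, and its mean of 2.88 ± 2.15 CPM over KO libraries and 3.84 ± 4.72 CPM over WT libraries (SD, n = 4 each) differed by less than the spread within either.

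Hes5 (promoter above) was at 2.30, 5.46, 8.15 and 7.27 CPM in KO1 to KO4 and at 1.54, 7.61, 13.7 and 4.87 CPM in WT1 to WT4. KO1 and WT1 were the lowest libraries and WT3 the highest, an 8.93-fold range. The log2 fold change was -0.05 with a standard error of 0.19 (edgeR adjusted p 0.942). A gene on the opposite strand overlaps 31.8% of its exonic bases. Hes1, the other main Notch effector, kept within a 1.70-fold range, lowest in KO3 and highest in WT3 at 2.54 CPM, and had a log2 fold change of -0.28 with a standard error of 0.20 (edgeR adjusted p 0.643), or -0.15 without KO3. All 4 KO libraries of Hes1 were below the WT mean of 2.22 CPM, although the genotypes overlapped.

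Hopx, a marker of outer radial glia and adult stem cells, was highest in WT3 at 15.6 CPM, and lowest in WT2 at 3.04 CPM. Hes1, Hes5, Id1, Id3, Hopx and Vim thus had their highest level of the 8 libraries in WT3, where Sox2, Sox9, Pax6, Nes and Ptprz1 had their lowest. WT3 was the highest library for 21.5% and the lowest for 19.6% of all tested genes, and the radial glia genes were split between these extremes rather than shifted together.

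**Figure D4:**
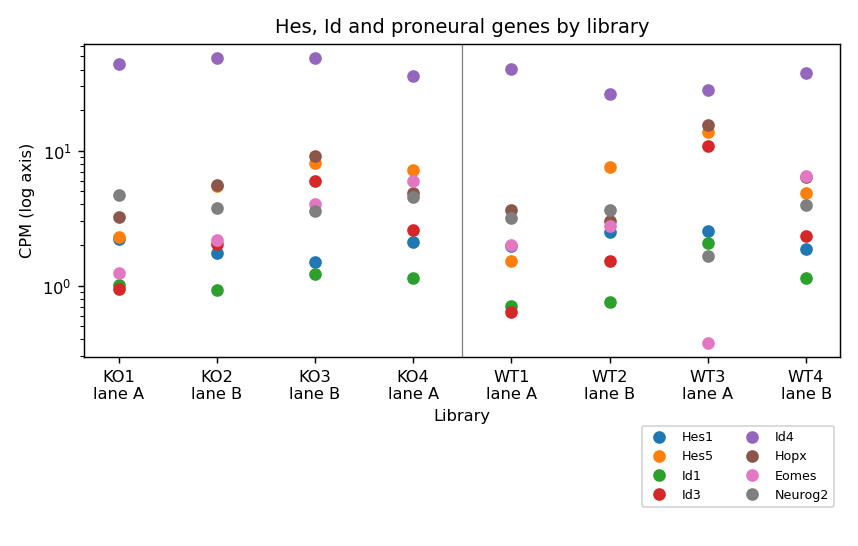
CPM (log axis) of Hes1, Hes5, Id1, Id3, Id4, Hopx, Eomes and Neurog2 in each library, KO left of the grey line and WT right of it. In WT3 Hes5, Id3 and Hopx stand at their highest and Eomes and Neurog2 at their lowest, while KO1 and WT1 are low in Hes5 and Id3.

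Eomes and Neurog2 were lowest in that library. Eomes, the marker of intermediate progenitors (chr9:118478186-118486132), was at 1.24, 2.17, 4.03 and 5.93 CPM in KO1 to KO4 and at 2.02, 2.77, 0.378 and 6.50 CPM in WT1 to WT4. WT3, with 18 counts, was the lowest of all libraries, and the highest, WT4, was 17.2-fold above it. KO minus WT, the log2 fold change was 0.07 with a standard error of 0.72 (edgeR adjusted p 0.983), and it turned to -0.42 without WT3. Neurog2, the proneural factor of glutamatergic progenitors (chr3:127632733-127635636), was at 4.71, 3.79, 3.57 and 4.52 CPM in KO1 to KO4 and at 3.17, 3.65, 1.66 and 3.95 CPM in WT1 to WT4. All 4 KO libraries were above the WT mean of 3.11 CPM, and the log2 fold change was 0.37 with a standard error of 0.24 (edgeR adjusted p 0.611), or 0.16 without WT3.

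The summed level of proliferation genes was also lowest in WT3. The 20 listed summed to 793, 612, 613 and 606 CPM in KO1 to KO4 and to 620, 509, 350 and 592 CPM in WT1 to WT4. Of these 20 genes 0 passed the adjusted threshold, while 12 had an unadjusted p under 0.05, all higher in KO, with a median log2 fold change of 0.38. The 4 with the smallest p were Ccnb1 at 0.65, Birc5 at 0.45, Mcm5 at 0.50 and Aurkb at 0.66, with standard errors from 0.15 to 0.23 and edgeR adjusted p values from 0.364 to 0.399. Of all tested genes 4.71% were higher in KO at that p. Of the 20 genes, 2 (Birc5 and Aurkb) had CPM that did not overlap between genotypes, beside 2.4% of all tested genes. The count of 12 was 14 without WT4 (6.92% of all genes) and 13 with lane as a term (7.51%). It was also 13 with replicate number as a term (4.23%), with 2 surrogate variables (7.57%) and in DESeq2 (3.63%). Lower counts included 11 without WT3 (7.07%), 4 without KO4 (4.54%), 1 without WT1 (2.17%) and 3 with no surrogate variable (0.867%). The single lanes gave 2 on lane A (0.129%) and 0 on lane B (5.6%). The median was 0.48 without WT4, 0.59 on lane A alone and 0.22 without WT3. On lane B alone it was 0.11, and in the fit on strain labels 0.17. The part of dividing cells in the progenitor values was not tested.

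Summed over genes, the 15 astrocyte members took 2819, 3331, 3656 and 2262 CPM in KO1 to KO4 and 3057, 2973, 2409 and 2758 CPM in WT1 to WT4. The 17 radial glia and progenitor members took 3306, 2657, 2490 and 2776 CPM in KO1 to KO4 and 3503, 3124, 2071 and 2876 CPM in WT1 to WT4. KO3 and KO2 had the highest astrocyte sums and KO4 the lowest, while WT1 and KO1 had the highest progenitor sums and WT3 the lowest. Ptprz1 alone took a mean of 1459 CPM in KO and 1616 CPM in WT of the progenitor sum. It too was highest in WT1 and KO1 and lowest in WT3. The means were 3017 ± 610 CPM in KO and 2799 ± 289 CPM in WT for astrocyte members, and 2807 ± 352 CPM against 2893 ± 606 CPM for progenitor members (SD, n = 4 each). Both differences were smaller than the spread within a genotype, and a score over the members was given no test.

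The log2 ratio of the astrocyte to the progenitor sum was -0.23, 0.33, 0.55 and -0.30 in KO1 to KO4 and -0.20, -0.07, 0.22 and -0.06 in WT1 to WT4. The KO libraries held both the highest and the lowest values, and the KO libraries of lane B stood above those of lane A. The means were 0.09 ± 0.42 in KO and -0.03 ± 0.17 in WT, a difference of 0.12. It was 0.03 without Sparcl1 and Ptprz1, the most abundant member of each side, and -0.04 without KO3. On the mean of log2 CPM, which weights genes equally, the tested astrocyte members were at 6.53 ± 0.52 in KO and 6.34 ± 0.15 in WT, and the tested progenitor members at 4.52 ± 0.18 and 4.40 ± 0.21.

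**Figure D5:**
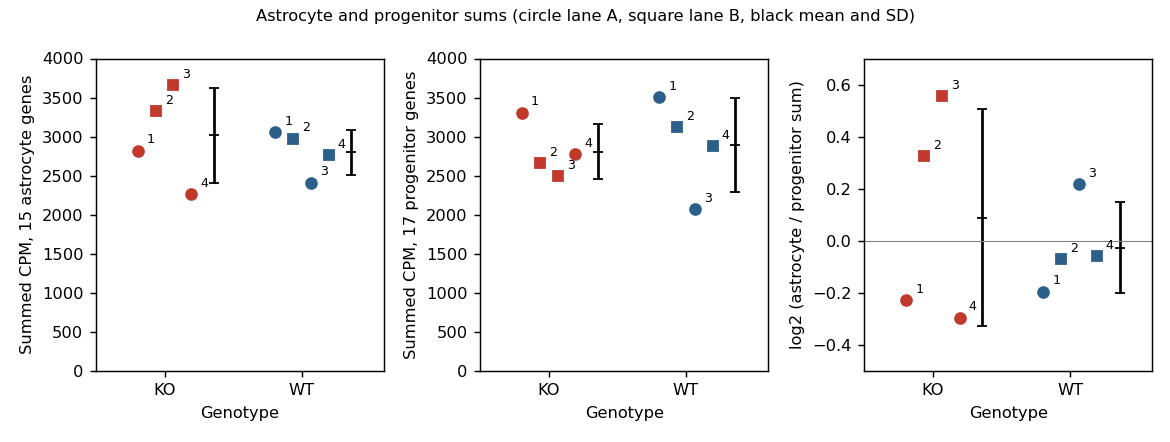
Summed CPM of the 15 astrocyte members (left), summed CPM of the 17 radial glia and progenitor members (middle), and the log2 ratio of these sums (right) in each library, numbered by replicate, with circles for lane A, squares for lane B and black bars for mean and SD. KO ratios run from -0.30 to 0.55 and enclose the WT ratios of -0.20 to 0.22.

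Each lane held 2 libraries of each genotype, which allowed the genotype difference to be compared between lanes. In an edgeR test of the interaction, which held no surrogate variable, 0 genes passed the adjusted threshold and 256 had an unadjusted p under 0.05. Of the members, Clu and Nes had an unadjusted p under 0.05, beside 1.57% of all tested genes, and the smallest adjusted p of a member was 1.0. For Clu the log2 fold change was 0.80 on lane B and -0.13 on lane A (p 0.0372 for the difference in edgeR, adjusted p 1.0). For Nes it ran the other way, -0.24 on lane B and 0.29 on lane A (p 0.0316 in edgeR, adjusted p 1.0). The strain label could not be separated from genotype for BJ, BO and BQ, which occurred in a single genotype. In a fit with that label as a covariate, KO4, WT2 and WT4 alone thus compared genotypes within a label. On lane B the KO libraries were all BJ and the WT libraries all BK, so no value from that lane alone separates genotype from strain label. KO4 had the lowest level of 6 members, all of them astrocyte genes (Gfap, Slc1a2, Aqp4, Gja1, S100b and Clu), and the highest of 0, beside 12.8% and 10.4% of all tested genes.

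Genes of the surrounding pathways were read from fixed lists in the same fit, with 0 of each list past the adjusted threshold in edgeR on all 8 libraries with 1 surrogate variable. Among 25 other astrocyte genes 1 had an unadjusted p under 0.05, Lcat, a cholesterol acyltransferase, at 0.62 with a standard error of 0.21 (edgeR adjusted p 0.381), and the median was 0.04. At that p 7 of the 25 were higher in KO on lane B alone (5.6% of all genes), 5 with lane as a term (7.51%) and 4 without KO4 (4.54%). In the fit on strain labels the median was -0.29. On lane B alone Ntsr2, a neurotensin receptor, and Entpd2, an ectonucleotidase, of this list were called at 0.83 and 1.37 (edgeR adjusted p 0.0323 and 0.0413). Among 15 other radial glia genes tested 1 had an unadjusted p under 0.05, Ddah1, an arginine-metabolising enzyme, at 0.22 with a standard error of 0.06 (edgeR adjusted p 0.313), and the median was 0.10. Over 12 genes of intermediate progenitors and proneural targets the median was 0.15.

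The Notch list, from ligands and receptors to the gamma-secretase subunits, had 27 genes tested and a median of 0.04. In it Maml2, a coactivator of RBPJ, was at 0.17 (standard error 0.06, edgeR adjusted p 0.408). The BMP list had 19 genes tested, with 1 higher and 2 lower and a median of -0.02. The ligand Bmp4 was higher at 0.83 (standard error 0.33), from 0.179 to 1.06 CPM over the libraries, and the receptor Bmpr2 and the antagonist Nog were lower at -0.22 (standard error 0.09) and -0.39 (standard error 0.16), with edgeR adjusted p values from 0.426 to 0.435. Id2, the Id gene that is not among the members, was called on lane B alone, at -0.44 (edgeR adjusted p 0.0413). In that fit 5 of the 19 BMP genes were higher and 2 lower in KO at an unadjusted p under 0.05, beside 5.6% of all genes each way.

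Of the 16 tested genes of the gliogenic JAK-STAT and NFI list, 1 had an unadjusted p under 0.05 in edgeR. Nfia, the factor that starts gliogenesis with Sox9, was at 105, 95.5, 91.1 and 79.6 CPM in KO1 to KO4 and at 85.9, 68.9, 63.5 and 79.1 CPM in WT1 to WT4. WT1 was above KO4, so the genotypes overlapped. The log2 fold change was 0.28 with a standard error of 0.06 (edgeR adjusted p 0.262). DESeq2, which called 1.23% of the genes with an adjusted p, called Nfia at 0.27 (adjusted p 0.0202) and Ddah1 at 0.21 (adjusted p 0.0465). The median of the list was 0.04, and Stat3, the effector by which cytokines act on Gfap, ranged from 36.8 CPM in WT1 to 60.7 CPM in KO3.

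Markers of other cells that could accompany glia were also measured. Oligodendrocyte lineage markers summed to between 564 and 703 CPM with a median log2 fold change of 0.01 over 9 tested genes, and Cnp, a myelin enzyme, was called on lane B alone at 0.56 (edgeR adjusted p 0.0386). Pdgfra, the receptor of oligodendrocyte precursors, was present at 248 to 432 CPM in every library. Endothelial, mural and fibroblast markers summed to between 10.6 and 51.9 CPM, with Cldn5 at 0 in 4 libraries and at most 0.0384 CPM, and markers of ependyma and choroid plexus to between 2.27 and 6.85 CPM. Neither of these lists had a gene with an unadjusted p under 0.05, and their medians were 0.20 and -0.24. In the fit on strain labels the median of the vascular and fibroblast markers was -0.355. Glutamatergic markers had a median of -0.02, with Slc17a7, the vesicular glutamate transporter, at -0.32 (standard error 0.11, edgeR adjusted p 0.382). Interneuron and pan-neuronal markers had medians of 0.17 and 0.01 and 0 genes with an unadjusted p under 0.05. Of the 9 interneuron markers, 5 were higher in KO at that p on lane B alone (5.6% of all genes) and 2 in DESeq2 (3.63%), and Npy, a neuropeptide, was called without WT3 at 0.79 (edgeR adjusted p 0.0388).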

How the data were processed

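The deposited values are raw counts per Ensembl gene that the authors made from poly-A RNA libraries of a stranded TruSeq kit, 4 KO and 4 WT. Per the study and the submitters' processing notes, reads were trimmed with cutadapt 1.10, ribosomal RNA reads discarded, the rest aligned to mm10 with STAR 2.5.3a, and unique alignments counted with HTSeq 0.6.1p1 in union mode. A read over several genes is left uncounted in that mode, and use of strand is not given in the sources used here. Read layout is given differently in the labels and the study.

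Genotype and replicate came from the labels. Counts were divided by library totals (31247078 to 67155004) to give CPM. Genotype was tested with edgeR 4.0.16 (quasi-likelihood F test, filterByExpr, TMM, R 4.3.3) with 1 surrogate variable from sva 3.50.0, over 16272 genes, Benjamini-Hochberg adjusted at 0.05. The fit was also run on simulated counts with known fold changes, and its outcome there is not reported here. Alternatives were 0 or 2 surrogate variables, lane, strain label or replicate number as a term, DESeq2 1.42.0, its size factors, no filter, single lanes, and omission of each library in turn. Of these, the fits with the strain label and on single lanes held no surrogate variable, nor did the test of the lane interaction. The labels put replicates in separate samples, and the study gives 4 animals per condition. Exon lengths and overlaps came from GENCODE M1, positions and promoters from RefSeq GRCm38.p6, matched by symbol. In the RefSeq windows, 3 motifs were searched.

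The members, groups and lists were chosen with earlier results of these data known. Values in every library are given for members with an unadjusted p under 0.05, with genotypes that did not overlap, or that define their group. Clu, Aldoc, Hes1 and Id3 were added after their values were seen. From each pathway or marker list the genes with the smallest p, up to 4, were named. Fold changes are log2, KO minus WT, and their standard errors are the fold change divided by the root of edgeR's F. Sox1 and Map2 were not analysed here. Some genes of the pathway and marker lists are not reported here.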

Additional observations from a re-analysis of the deposited data

Results flagged for a closer look

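Within groups of 4 libraries, 3 of 60 groups tested over the members held a library whose gap to its nearest neighbour exceeded Dixon's critical share of the group's range for 4 samples, and chance alone gives about 3 of 60. Slc1a2 at 183 CPM in KO4 had a gap of 0.894 of the KO range. Slc1a3 at 471 CPM in KO4 had a gap of 0.866 of the KO range. Id3 at 10.9 CPM in WT3 had a gap of 0.833 of the WT range.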

How the results depend on the processing

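Of 324 fold changes recomputed for 18 members under 18 alternatives, 271 kept their direction, 53 turned, and 2 passed the adjusted threshold, Aqp4 at 0.95 and Aldoc at 0.42 on lane B alone. Dio2, Hes1 and Id4 turned in none. Leaving out a library in turn gave 3 to 114 genes past the threshold (114 without WT3), 0 members past it in each case, 1 to 6 of 30 members with an unadjusted p under 0.05 (6 without KO4, beside 9.85% of all genes there, and 5.15% to 15.8% of all genes over these fits), an astrocyte median of -0.02 to 0.22, a radial glia median of -0.05 to 0.03, and an astrocyte to progenitor ratio, KO minus WT, of -0.04 to 0.24. Its ranges for members that turned were -0.068 to 0.23 for Aldh1l1, -0.14 to 0.16 for Slc1a3, -0.29 to 0.052 for Slc1a2, -0.082 to 0.29 for Apoe, -0.12 to 0.057 for Fabp7, -0.19 to 0.14 for Hes5, -0.037 to 0.066 for Vim and -0.42 to 0.77 for Eomes.

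The number of genes past the threshold, 8 as reported, was 4 with no surrogate variable, 17 with 2 surrogate variables, 15 with lane as a term, 1 with the strain label, 50 with no filter, 165 in DESeq2, 99 on lane B and 0 on lane A (96 at p under 0.05, unadjusted). On lane B 2 members passed. Members with an unadjusted p under 0.05, 2 as reported, were 0 of 30 on lane A (0.591% of all genes) and 7 on lane B (11.2%). There was 1 with no surrogate variable (2.52%), with median-of-ratios size factors (10.2%) or with no filter (6.96%).

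Turned values were as follows. With 2 surrogate variables Slc1a3 was -0.12, Apoe -0.021, Hes5 0.087 and Eomes -0.063. With no surrogate variable Vim was -0.015. Slc1a3 was -0.00048 in DESeq2 and -0.00052 with median-of-ratios size factors. On lane A Sox2 was 0.022, Fabp7 0.14, Apoe -0.26, Aldh1l1 -0.21, Aldoc -0.016, Vim -0.051 and Clu -0.13. On lane B Neurog2 was -0.11, Slc1a3 -0.014, Slc1a2 0.21, Hes5 0.044 and Eomes -0.58. With the strain label the astrocyte median was -0.53, Gfap -2.26, Aldh1l1 -0.21, Slc1a3 -0.45, Aqp4 -0.97, Apoe -0.61, Clu -0.61, Fabp7 0.16, Pax6 -0.17, Hes5 0.19 and Vim -0.092. The cause was not tested.

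With a replicate block 3 genes passed the threshold and 5 of 30 members had an unadjusted p under 0.05 (9.77% of all genes), and Slc1a3 was -0.015, Apoe -0.0093, Fabp7 0.015 and Hes5 0.025. Same-numbered libraries deviated together only for number 1 (correlations 0.88, -0.16, 0.07 and -0.09), so the numbers were not taken to pair the samples. The ratio per kb and the leave-one-out ratios were chosen after seeing the data. With 4 libraries a genotype, a p that missed the threshold does not show that levels were alike.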
